A study of Mus musculus with 6 samples.

Results

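Cystine uptake and glutathione synthesis are described here through 10 genes of mouse liver, chosen by name with earlier results of the same comparison known. They are Slc7a11, Slc3a2, Gclc, Gclm, Gss, Gsr, Gpx1, Gpx2, Gpx4 and Ggt1, and all 10 were found among the 56305 genes of the deposited table. RNA was sequenced from the livers of 3 wild-type (WT) and 3 Vps15LKO mice, with 1 library for each liver. All mice were 5-week-old males fed ad libitum, and the livers were collected at ZT6, that is 6 h after lights on. Vps15LKO mice are AlbCre+;Vps15f/f animals, in which Cre recombinase under the albumin promoter removes a floxed part of Vps15, a chronic deletion specific to the liver. The genotype of the WT controls of this line is not given beyond that name. Vps15 is the regulatory subunit of class 3 PI3K, the lipid kinase complex of endocytosis and autophagy, and whole liver, not sorted hepatocytes, was sequenced. The deposited values are read counts per gene divided by 1 DESeq2 size factor per library, called normalized counts below.

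Glutathione is the main low-molecular-weight thiol of the cell, and its supply is limited by cysteine. Cystine, the oxidized pair of cysteine outside the cell, enters through the transporter xCT (Slc7a11), which is held at the membrane by the heavy chain 4F2hc (Slc3a2). Glutamate-cysteine ligase, made of a catalytic (Gclc) and a modifier (Gclm) subunit, joins cysteine to glutamate, and glutathione synthetase (Gss) adds glycine. Glutathione peroxidases (Gpx1, Gpx2, Gpx4) spend glutathione to reduce peroxides, glutathione reductase (Gsr) restores it with NADPH, and gamma-glutamyltransferase (Ggt1) cleaves it outside the cell. Hepatocytes are known for making much of their own cysteine from methionine by transsulfuration, and for exporting glutathione to the blood and bile.

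Pik3r4, the gene of Vps15, had 508, 573 and 460 normalized counts in the WT and 341, 362 and 355 in the Vps15LKO livers. With the deposited scaling the log2 fold change was −0.54, and with every library set to the same total of reads it was 0.19. Reads of the deleted part were not counted on their own. The libraries held 16137093 to 18110223 reads, but the size factors were 0.742 to 0.801 in WT and 1.23 to 1.41 in Vps15LKO libraries, so the choice of scaling moves every fold change. Equal totals shift the median log2 fold change of the 15430 tested genes by 0.72, and directions below are given with the size factors unless stated. Of the 8 hepatocyte markers, 0 were called higher and 7 lower, where 33.5% and 33.0% of all tested genes were, and their summed normalized counts were 2681300 to 3125080 in WT and 772304 to 1181090 in Vps15LKO livers. All 7 tested cholangiocyte and progenitor markers were called higher, 2 of which passed the filter on low values through the Vps15LKO livers alone, with sums of 665 to 794 in WT and 12141 to 23249 in Vps15LKO livers. The sums went from 6540 to 7978 in WT up to 21410 to 24723 in Vps15LKO livers for macrophage markers (7 of 8 called higher), from 6652 to 7109 up to 26241 to 30565 for stellate and fibroblast markers (8 of 8 higher), and from 531 to 756 up to 3565 to 3809 for proliferation genes (8 of 8 higher). Endothelial markers were split, with 4 called higher and 4 lower (5 and 0 with equal totals) and sums of 6525 to 7151 in WT and 5345 to 6947 in Vps15LKO livers. In whole liver, fewer cells of a type and less RNA per cell cannot be told apart, and the part of this shift in the values below was not tested.

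Of the 10 genes, 8 were called higher in Vps15LKO livers (where 33.5% of the 15430 tested genes were) and 1 was called lower (33.0% of tested genes), while Gclm was not called. A call needs a fold of at least 1.2 and an adjusted p under 0.05 from limma across all tested genes. Since the genes were chosen with this contrast known, the calls describe them and are given without p-values. The gene lists below were also chosen with earlier results known, and most of their named genes by the size of this change. Their adjusted p-values show how the calls were made and are not independent tests. The 3 WT and the 3 Vps15LKO values did not overlap for 9 of the 10 genes, as for 73.2% of all tested genes. All 10 passed the filter of 20 normalized counts in 3 livers, but Slc7a11, Gpx2 and Ggt1 passed it through the Vps15LKO livers alone and so had to differ. Of the other 7, 5 were called higher and 1 lower. Among the 14189 genes that passed the filter through both genotypes, 4148 were called higher and 4895 lower. With every library set to the same total of reads, 9 genes were called higher (66.7% of tested genes) and 1 lower (11.1%), Gclm having joined the higher ones. The 10 genes together held 0.243% ± 0.0137 of the reads in WT and 0.441% ± 0.00964 in Vps15LKO libraries (SD, n = 3), a ratio of 1.81 between the means, as a share of reads takes the view of equal totals. With the size factors their summed normalized counts averaged 55194 ± 5323 for WT and 60534 ± 5328 for Vps15LKO (SD, n = 3), a ratio of 1.10 with overlapping values.

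**Figure D1:**
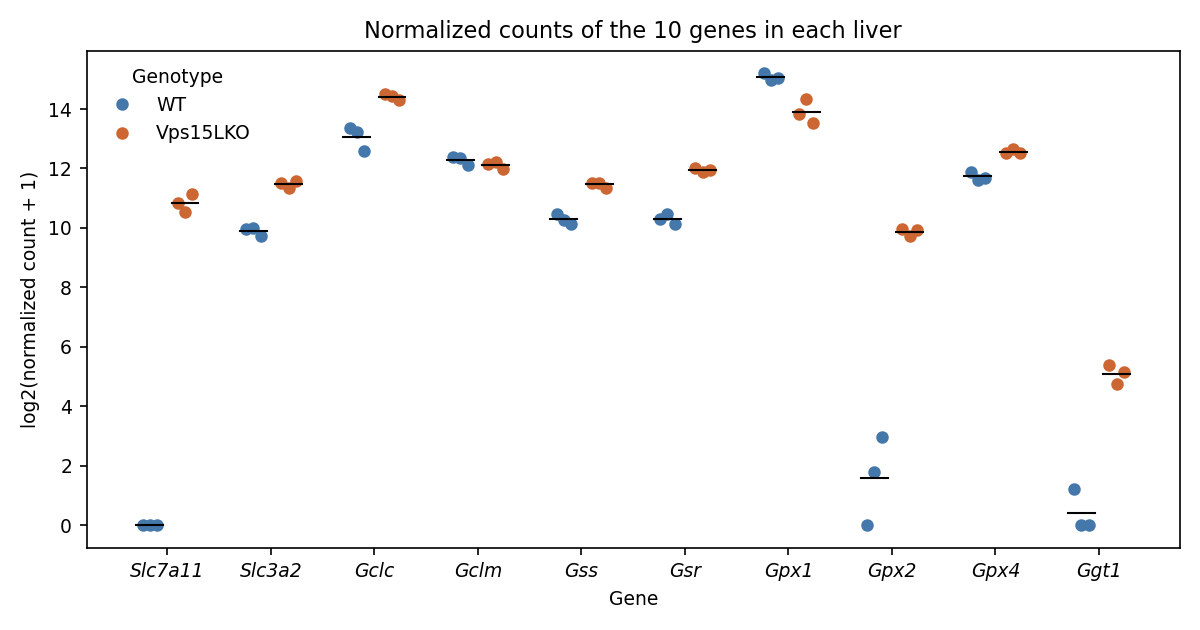
Normalized counts of the 10 genes on a log2(normalized count + 1) scale (y axis), with 1 point for each liver, 3 WT in blue and 3 Vps15LKO in orange, and a line at each mean. Slc7a11, Gpx2 and Ggt1 sit at or near 0 in WT livers, the points of Gclm overlap, and Gpx1 alone has its Vps15LKO points below all WT points, an order of Gpx1 that is lost with quantile normalization (log2 fold change 0.05).

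Start-site windows from RefSeq (GRCm38.p6), from 250 bases before to 50 bases after the start, were given for 8 of the 10 genes (14 windows). Gclc and Gsr had none. Each window was searched on both strands for the core of the antioxidant response element that Nrf2 and Maf proteins bind (TGACNNNGC), for the C/EBP-ATF element that ATF4 binds (TGATGNAA) and for the E-box of the clock (CACGTG). The cores were found in 12.4%, 3.97% and 7.15% of all 32851 windows. Slc7a11 held 2 C/EBP-ATF elements, TGATGCAA beginning 66 bases and TTGCATCA, on the other strand, beginning 47 bases before the start. Gclm held 1 antioxidant core, GCACCGTCA on the other strand, beginning 134 bases before the start. Ggt1 held an antioxidant core in 3 of its 4 windows, 2 of them before the start, GCTGGGTCA at 36 bases in window 2 and TGACGCTGC at 83 bases in window 3, and an E-box after the start of window 2. No search letters were found in the windows of Slc3a2, Gss, Gpx1, Gpx2 and Gpx4. The 250 bases before the start are printed, with the match in capitals, for the gene without any WT read (Slc7a11), for the gene that was not called (Gclm) and for both Ggt1 windows with a match before the start. They lie at chr3:50443614-50443863 (minus strand), chr3:122245307-122245556, chr10:75568412-75568661 and chr10:75571310-75571559 (plus strand). A match is a description of letters, and binding was not measured here.
Slc7a11: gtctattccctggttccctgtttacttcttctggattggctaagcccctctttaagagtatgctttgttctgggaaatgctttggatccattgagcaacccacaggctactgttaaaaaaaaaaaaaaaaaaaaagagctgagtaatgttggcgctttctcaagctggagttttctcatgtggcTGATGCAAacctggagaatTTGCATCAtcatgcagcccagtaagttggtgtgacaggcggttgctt
Gclm: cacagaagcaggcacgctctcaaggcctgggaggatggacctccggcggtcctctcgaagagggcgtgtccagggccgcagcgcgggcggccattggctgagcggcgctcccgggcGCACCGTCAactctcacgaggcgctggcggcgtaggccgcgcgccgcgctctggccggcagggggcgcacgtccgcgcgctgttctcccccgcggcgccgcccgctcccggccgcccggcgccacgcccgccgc
Ggt1, window 2: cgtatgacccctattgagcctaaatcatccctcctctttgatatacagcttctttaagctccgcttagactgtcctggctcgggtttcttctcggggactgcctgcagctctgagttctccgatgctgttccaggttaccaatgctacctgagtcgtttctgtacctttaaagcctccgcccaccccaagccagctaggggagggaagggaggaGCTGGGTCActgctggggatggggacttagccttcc
Ggt1, window 3: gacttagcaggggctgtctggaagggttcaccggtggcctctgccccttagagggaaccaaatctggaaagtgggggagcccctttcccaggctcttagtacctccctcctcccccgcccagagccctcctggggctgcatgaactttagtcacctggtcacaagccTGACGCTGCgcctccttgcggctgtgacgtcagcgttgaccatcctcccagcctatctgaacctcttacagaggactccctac

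The cystine transporter changed from no reads to a well-measured transcript. Slc7a11 (ENSMUSG00000027737, chr3:49892526-50443614, minus strand, GRCm38) was the gene with the pair of C/EBP-ATF elements. It had 0 reads in each of the 3 WT libraries. It had 1814, 1489 and 2269 normalized counts in the Vps15LKO livers, from 2376, 1837 and 3208 reads. Set against a floor of 3 reads in each WT library, the level in Vps15LKO livers was at least 473-fold higher. The fitted log2 fold change of 10.84 depends on the pseudocount and bounds nothing. Across Vps15LKO replicates 1, 2 and 3, the order of the Slc7a11 values was that of the summed cholangiocyte and progenitor markers (15508, 12141 and 23249). It was the reverse of that of the summed hepatocyte (962659, 1181090 and 772304) and endothelial markers (6315, 6947 and 5345). The sums of stellate and fibroblast markers (26241, 28603.5 and 30565), macrophage markers (24723, 24576 and 21410) and proliferation genes (3565, 3604 and 3809) followed neither order. With 3 livers, a shared order can arise by chance. Which cells hold the transcript was not tested.

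Its heavy chain was expressed in both genotypes. Slc3a2 (ENSMUSG00000010095, chr19:8706882-8723369, minus strand) had 990.5, 1021 and 848 normalized counts in WT livers and 2934, 2570.4 and 3084 in Vps15LKO livers. All Vps15LKO livers lay well above all WT livers, at 3.00 times the WT mean and a log2 fold change of 1.59 ± 0.11 (standard error). Per kb of exon, the mean level of Slc3a2 in Vps15LKO livers was 6.18 ± 0.744 times that of Slc7a11 (SD, n = 3). 4F2hc also carries other amino acid transporters, and these partners were measured too: of 5 other light chains, 4 were called higher and 1 lower, where 33.5% and 33.0% of all tested genes were (4 higher and 0 lower with equal totals of reads, against 66.7% and 11.1%). Slc7a6 is among the 4 but had to differ, since it passed the filter through the Vps15LKO livers alone, and 3 of the other 4 light chains were called higher, with a median log2 fold change of 1.06 over these 4 against −0.07 for all genes that passed the filter through both genotypes. Slc7a8, the light chain of the LAT2 exchanger, rose from 192, 215 and 256 to 1251, 1229 and 1018 normalized counts (log2 fold change 2.40, adjusted p = 2.41e-06 from limma). Slc7a6, of the y+LAT2 exchanger, had 1.33, 5.0 and 5.39 in WT and 88.6, 82.7 and 96.9 in Vps15LKO livers. Per kb, Slc7a8 was 1.82 ± 0.531 times Slc7a11 in the Vps15LKO livers (1.48 times with the longest transcript as the length). Before division by length, Slc7a11 had more normalized counts (1814, 1489 and 2269) than Slc7a8 in every Vps15LKO liver. That the cystine transporter was not the most abundant of the light chains there thus rests on the lengths used. Slc7a7, of the y+LAT1 exchanger, rose by 1.69 on the log2 scale (adjusted p = 5.39e-05 from limma). The changes of Slc7a5 and Slc7a10 were smaller and less stable. Slc7a5 (LAT1) had 0.43 on the log2 scale (adjusted p = 0.0301 from limma), and its call was lost without WT replicate 1 (0.30) or without any 1 of the Vps15LKO replicates (0.38 to 0.46), and with quantile normalization (0.06). Slc7a10 (Asc-1) had −0.89 (adjusted p = 0.0172 from limma), and its call was lost without WT replicate 3 (−0.78), without Vps15LKO replicate 1 (−0.85) or 3 (−0.70), and with equal totals of reads (−0.19).

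Other carriers of cystine or cysteine were also measured, with 3 of 5 tested genes called higher and 1 lower, where 33.5% and 33.0% of all tested genes were (4 and 1 with equal totals of reads, against 66.7% and 11.1%). Of these, Slc1a1 passed the filter through the Vps15LKO livers alone and so had to differ, and without it 2 of 4 were called higher. Slc1a1, a glutamate transporter that also takes up cysteine, had 1 read in the 3 WT libraries together and 391, 345 and 271 normalized counts in the Vps15LKO livers. The ratio of its levels was 767, with a 95% interval from 137 to 30302 that covers counting error only. Slc1a4, a carrier of neutral amino acids that include cysteine, rose from 106, 87.4 and 113 to 1829.7, 1904 and 1651 (log2 fold change 4.13, adjusted p = 1.74e-07 from limma). Mfsd12, needed for cysteine import into lysosomes and melanosomes, rose from 209.5, 209 and 214 to 589.5, 580.2 and 553 (1.44, adjusted p = 4.27e-06 from limma). In the other direction, Slc3a1, the heavy chain of the renal-type cystine transporter, fell from 941, 668 and 647 to 97.7, 126 and 100.4 (−2.78, adjusted p = 3.83e-06 from limma). Slc3a1, Slc1a1 and Mfsd12 share exon sequence with genes on the other strand, and how the counting treated strand is not stated.

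Most genes that make or break down cysteine inside the cell were called lower. Of 8 genes of cysteine synthesis and breakdown, 6 were called lower and 1 higher, with a median log2 fold change of −1.61, and 6 were called lower with equal totals of reads as well (median −0.89). Of all tested genes, 33.0% were called lower and 33.5% higher, and 11.1% lower with equal totals. Cbs, the cystathionine synthase that opens transsulfuration, fell from 11539.7, 10519 and 8678 to 2645, 3275 and 2553 normalized counts (−1.86, adjusted p = 1.32e-05 from limma). Cth, the lyase that releases cysteine, fell from 7388, 7244 and 5617 to 1678, 2129.6 and 1591 (−1.91, adjusted p = 1.33e-05 from limma). Csad, which leads cysteine toward taurine, fell by 2.05 on the log2 scale (adjusted p = 0.00196 from limma), with WT replicate 3 at 2238 and the other WT livers at 6674 and 6930.0. These falls accompany the fall of the hepatocyte marker list given above, and the part of that shift was not tested. Ado, an oxygenase of cysteamine, had 0.27 on the log2 scale (adjusted p = 0.0334 from limma), a call lost without WT replicate 2 (0.22) or any 1 of the Vps15LKO replicates (0.25 to 0.30), with quantile normalization (0.23), with DESeq2 (0.27), with a replicate block and with all genes above 0 in any liver tested (0.27 in both).

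Gclc and Gss, which serve the first and the last step of glutathione synthesis, were called higher, while Gclm was not called with the deposited scaling. Gclc (ENSMUSG00000032350, chr9:77754535-77794485, plus strand) had 10645, 9608 and 6202 normalized counts in WT and 23253, 22126 and 20134 in Vps15LKO livers. WT replicate 3 was the lowest of all 6 livers, and each Vps15LKO liver held more than any WT liver (log2 fold change 1.34 ± 0.21, standard error, and 1.11 to 1.5 with each liver left out in turn). Gclm (ENSMUSG00000028124, chr3:122245557-122270732, plus strand) had 5374, 5240.0 and 4426 in WT and 4520.1, 4782 and 4063 in Vps15LKO livers. These values overlap, and the log2 fold change of −0.17 ± 0.12 (standard error) was not called, while it was 0.56 with equal totals of reads and 0.52 with quantile normalization, both called higher. A ratio taken within a liver is free of any factor common to a library, though not of quantile normalization. Per kb of exon, Gclc was 3.31, 3.06 and 2.34 times Gclm in the WT livers and 8.59, 7.73 and 8.28 times Gclm in the Vps15LKO livers. The mean ratio thus went from 2.90 ± 0.503 to 8.20 ± 0.437 (SD, n = 3), with no overlap between genotypes. Gclm shares 244 bases of exon with the pseudogene Gm6061 and 296 bases with Gm17494 on the other strand, which averaged 45.4 and 51.3 normalized counts over the 6 livers.

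Gss (ENSMUSG00000027610, chr2:155563181-155592810, minus strand) had 1400.2, 1232 and 1123 normalized counts in WT and 2941, 2904 and 2627 in Vps15LKO livers. The groups stood clearly apart, with a log2 fold change of 1.18 ± 0.11 (standard error). With the size factors the change was of about the size seen for Gclc, while with quantile normalization it was 1.60 for Gss and 2.40 for Gclc. Per kb, Gss was 0.0935 ± 0.0188 times Gclc in WT and 0.0824 ± 0.00164 times Gclc in Vps15LKO livers (SD, n = 3), ranges that overlap. Gss shares exon sequence with Acss2, Gssos1 and Gssos2 on the other strand. Gsr (ENSMUSG00000031584, chr8:33652523-33698163, plus strand) had 1274, 1411 and 1116 in WT and 4183, 3809 and 3931 in Vps15LKO livers. All Vps15LKO values were far above the WT values, with a log2 fold change of 1.65 ± 0.11 (standard error). Per kb, Gsr went from 2.18 ± 0.257 to 3.03 ± 0.20 times Gss (SD, n = 3), without overlap.

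**Figure D2:**
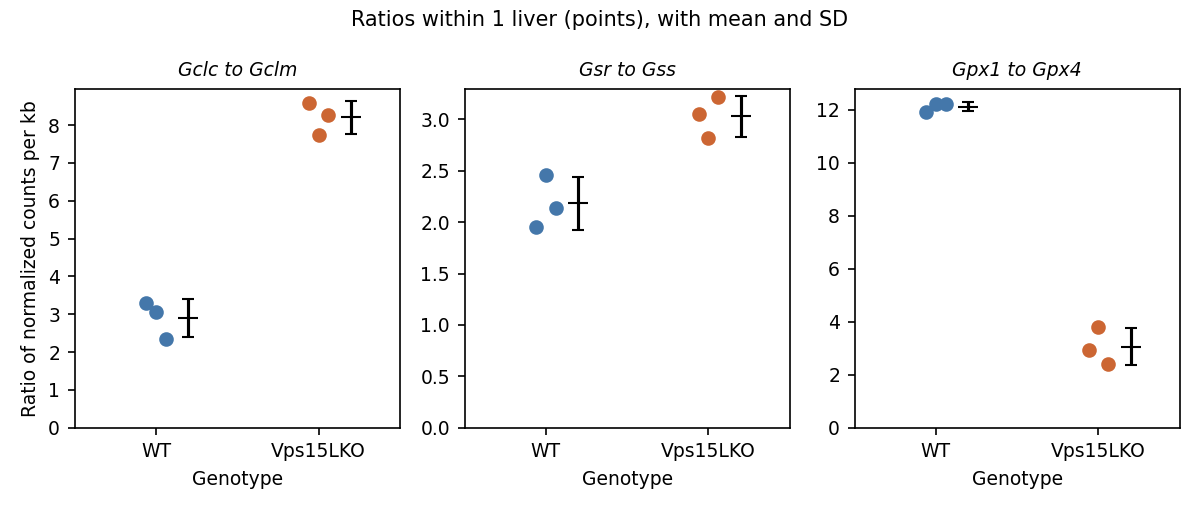
Ratios of normalized counts per kb of exon between pairs of genes within 1 liver (y axis, from 0), with a point for each of 3 WT and 3 Vps15LKO livers and the mean with its SD as a black bar. Gclc to Gclm went from 2.90 to 8.20, Gsr to Gss from 2.18 to 3.03 and Gpx1 to Gpx4 from 12.1 to 3.06, and a common factor on all genes of a library leaves these ratios as they are.

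Among the glutathione peroxidases, Gpx2 and Gpx4 rose while Gpx1 fell, except with quantile normalization, where Gpx1 was not called. Gpx1 (ENSMUSG00000063856, chr9:108338903-108340343, plus strand), the abundant cytosolic selenoenzyme, had 37636, 32076 and 33728 normalized counts in WT and 14590.3, 20505 and 11899 in Vps15LKO livers. Every Vps15LKO liver was below every WT liver, and the log2 fold change was −1.17 ± 0.22 (standard error), −0.45 and still called with equal totals of reads, and 0.05 and not called with quantile normalization. Gpx4 (ENSMUSG00000075706, chr10:80047166-80056439, plus strand), which reduces lipid hydroperoxides in membranes and is known as the brake on ferroptosis, had 3776, 3138 and 3308 in WT and 5941, 6431 and 5880.3 in Vps15LKO livers. All Vps15LKO livers were higher, with a log2 fold change of 0.84 ± 0.11 (standard error). The pseudogene Gpx4-ps2 was listed at 952, 748 and 819.6 in WT and 1525, 1708 and 1506 in Vps15LKO livers, and how reads were split between it and Gpx4 is not known.

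Gpx2 (ENSMUSG00000042808, chr12:76792333-76795554, minus strand), the peroxidase known from the gut epithelium, was nearly silent in WT livers. It had 0, 2 and 5 reads in the WT libraries, or 0, 2.50 and 6.74 normalized counts, and 992, 849 and 977 normalized counts in Vps15LKO livers. The ratio of the means was 305, and the fitted log2 fold change was 8.29, but 7.49 without WT replicate 1 and 8.97 without WT replicate 3, since so few WT reads stand behind it. The pseudogene Gpx2-ps1 had at most 1.53 normalized counts in any liver.

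Within the peroxidase family, the make-up of the mRNA shifted away from Gpx1. Of the sum of Gpx1 to Gpx8 per kb of exon, Gpx1 made up 91.8%, 91.8% and 91.7% in WT but 66.5%, 73.3% and 60.1% in Vps15LKO livers. Gpx4 went from 7.57% ± 0.11 to 22.2% ± 2.82 and Gpx2 from 0.0038% ± 0.00413 to 1.86% ± 0.446 (SD, n = 3). The ratio of Gpx1 to Gpx4 per kb was 11.9, 12.2 and 12.2 in WT, nearly the same in each liver, and 2.94, 3.81 and 2.42 in Vps15LKO livers. Of the family members outside the 10 genes, Gpx3, Gpx7 and Gpx8 were tested and called higher, but Gpx8 had to differ, since it passed the filter through the Vps15LKO livers alone. Gpx3, the secreted plasma form, had 152, 186 and 214 normalized counts in WT and 2088, 1701 and 2739 in Vps15LKO livers (log2 fold change 3.54, adjusted p = 1.86e-06 from limma). Gpx7, of the endoplasmic reticulum, rose by 1.77 on the log2 scale (adjusted p = 0.000193 from limma). Gpx8, of the same compartment, had 14.6, 5.0 and 9.44 in WT and 61.1, 72.9 and 91.9 in Vps15LKO livers. Gpx5 and Gpx6 did not pass the filter, with at most 2.50 normalized counts of Gpx5 and 21.6 of Gpx6 in any liver.

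**Figure D3:**
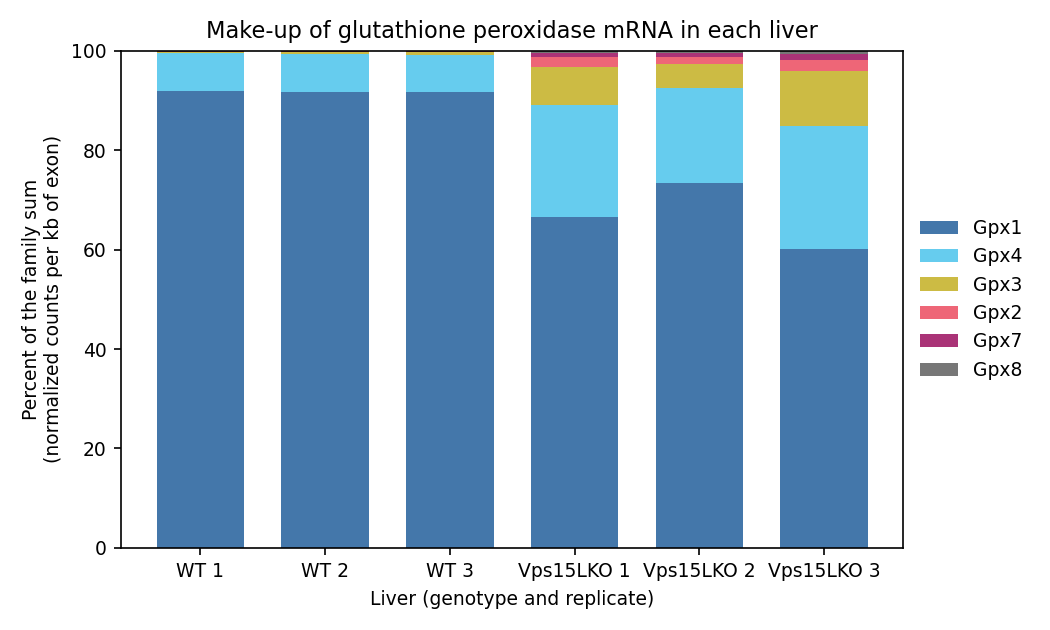
Share of each glutathione peroxidase in the summed normalized counts per kb of exon (y axis, percent, from 0 to 100), 1 bar for each liver. Gpx1 fills about 91.8% of each WT bar and 60.1% to 73.3% of the Vps15LKO bars, where Gpx4, Gpx3 and Gpx2 take more. Gpx5 and Gpx6, under 0.07% in each liver, are left out.

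Gpx1, Gpx2 and Gpx4 are selenoproteins, and the genes that make and supply selenocysteine were measured beside them. All 8 genes of this list were called lower, with a median log2 fold change of −0.84, but 3 were called lower and 3 higher with equal totals of reads (median −0.12). Of all tested genes, 33.0% were called lower, and with equal totals 11.1% were called lower and 66.7% higher. Sephs2, which makes the selenium donor, fell from 16539, 17305 and 14445 to 4902, 5513 and 4379 normalized counts (−1.71, adjusted p = 1.39e-05 from limma). Sepsecs, the last enzyme of selenocysteine synthesis on its tRNA, fell by 1.21 on the log2 scale (adjusted p = 4.04e-05 from limma). Selenop, the selenium carrier that the liver secretes, had 173294, 178139 and 176977 in WT and 87178, 93999 and 75443 in Vps15LKO livers. The log2 fold change of Selenop was −1.05 (adjusted p = 0.0249 from limma), its call was lost without WT replicate 1 (−1.06), WT replicate 2 (−1.04) or Vps15LKO replicate 1 (−1.06), and it was not called with equal totals (−0.32) or with quantile normalization, where −0.04 was left.

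Ggt1 (ENSMUSG00000006345, chr10:75561604-75586200, plus strand) had 1, 0 and 0 reads in the WT libraries. It had 54, 32 and 49 reads in Vps15LKO libraries, or 41.2, 25.9 and 34.7 normalized counts, so it was detected there at a low level. The ratio of its levels was 78.3, with a 95% interval from 13.8 to 3117 that covers counting error only. Of 13 other tested genes of glutathione breakdown, 5 were called higher (1 of them, Dpep2, having passed the filter through the Vps15LKO livers alone) and 6 lower, where 33.5% and 33.0% of all tested genes were. Without Dpep2 the median log2 fold change was −0.59 (0.13 with equal totals of reads). Ggact, a gamma-glutamylamine cyclotransferase, fell by 1.86, and Ggt7, a relative of Ggt1, fell by 1.79 on the log2 scale (adjusted p = 1.97e-05 and 4.76e-05 from limma). Chac2, which degrades glutathione in the cytosol, fell from 371, 339 and 298 to 124, 122 and 102 normalized counts (−1.53, adjusted p = 2.29e-05 from limma). Cndp2, the dipeptidase that splits cysteinylglycine, rose from 744, 722 and 698 to 1809.8, 1694 and 1964 (1.33, adjusted p = 6.21e-06 from limma).

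Set in order by length, the levels of the 10 genes kept their top and changed in the middle. Per kb of exon, Gpx1 led in both genotypes, at 23928 ± 1981 normalized counts for WT and 10871 ± 3055 for Vps15LKO (SD, n = 3). Gclc (2342 ± 617) and Gpx4 (1976 ± 192) followed in WT with overlapping values, and in Vps15LKO livers Gclc (5799 ± 419) stood clear of Gpx4 (3529 ± 175). In WT livers Gclm (797 ± 81.6) came next, ahead of Gsr (460.2 ± 53.7), Slc3a2 (270.0 ± 26.1) and Gss (212 ± 23.6). In Vps15LKO livers Gsr (1443 ± 69.2) passed Gclm (708 ± 57.9), and Slc3a2 (811 ± 74.9) overlapped with Gclm, ahead of Gss (477 ± 29.0). Below them came Gpx2 (292 ± 24.4), Slc7a11 (133 ± 28.2) and Ggt1 (9.95 ± 2.25) in Vps15LKO livers, while Gpx2, Ggt1 and Slc7a11 at the bottom of the WT order overlapped with each other. Using the longest transcript as the length put Gpx4 above Gclc in WT and made these 2 overlap in Vps15LKO livers, and it exchanged Gss with Slc3a2 in WT and with Gclm in Vps15LKO livers, pairs that overlap there.

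**Figure D4:**
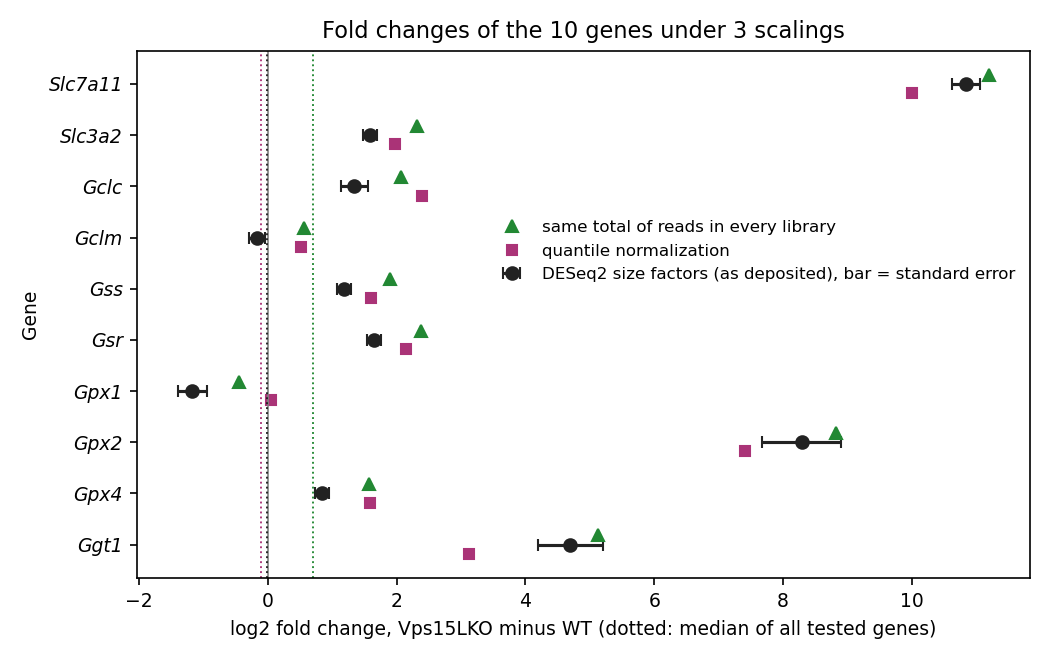
Log2 fold changes of the 10 genes, Vps15LKO minus WT (x axis), with the size factors of the deposited table (circles with standard error), equal totals of reads (triangles) and quantile normalization (squares). Dotted lines mark the median of all tested genes under each scaling. Gclm went from −0.17 to 0.56 and 0.52, Gpx1 from −1.17 to −0.45 and 0.05, and the other 8 genes stayed above 0 in all 3.

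Glutathione has to leave the cell and be kept reduced. Of 7 genes of glutathione transport, 3 were called higher and 2 lower (5 and 0 with equal totals of reads), near the shares of all tested genes (33.5% and 33.0%, and 66.7% and 11.1% with equal totals). The 3 called higher encode efflux pumps known to carry glutathione or its conjugates. Abcc2, the efflux pump of the bile canaliculus that carries them too, had 11923, 12831 and 10223 normalized counts in WT and 13115, 11651 and 10185 in Vps15LKO livers, values that overlap, and was not called (log2 fold change −0.0024), while it was called higher with equal totals (0.72) and with quantile normalization (1.05). Abcc4 rose from 98.1, 122 and 68.7 to 2813, 2414 and 2417 normalized counts (4.74, adjusted p = 5.84e-07 from limma), Abcc1 by 3.14 (adjusted p = 9.70e-06) and Abcc5 by 2.87 on the log2 scale (adjusted p = 4.17e-07). The mitochondrial importer Slc25a39 had −0.50 (adjusted p = 0.0042 from limma), which turned to 0.23 with equal totals and 0.52 with quantile normalization, and Abcg2 had −0.65 (adjusted p = 0.000616 from limma), which turned to 0.07 with equal totals. For NADPH, 2 of 6 genes were called higher and 4 lower (3 and 2 with equal totals), against the same shares. Pgd of the pentose phosphate pathway rose from 785, 747 and 706 to 5302, 5275 and 5302 (2.83, adjusted p = 1.87e-07 from limma) and G6pdx by 1.41 (adjusted p = 1.25e-05), while Me1 fell by 1.33 (adjusted p = 0.000126), Nnt by 1.09 (adjusted p = 9.80e-05) and Idh1 had −1.002 (adjusted p = 0.000366, not called with equal totals).

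**Figure D5:**
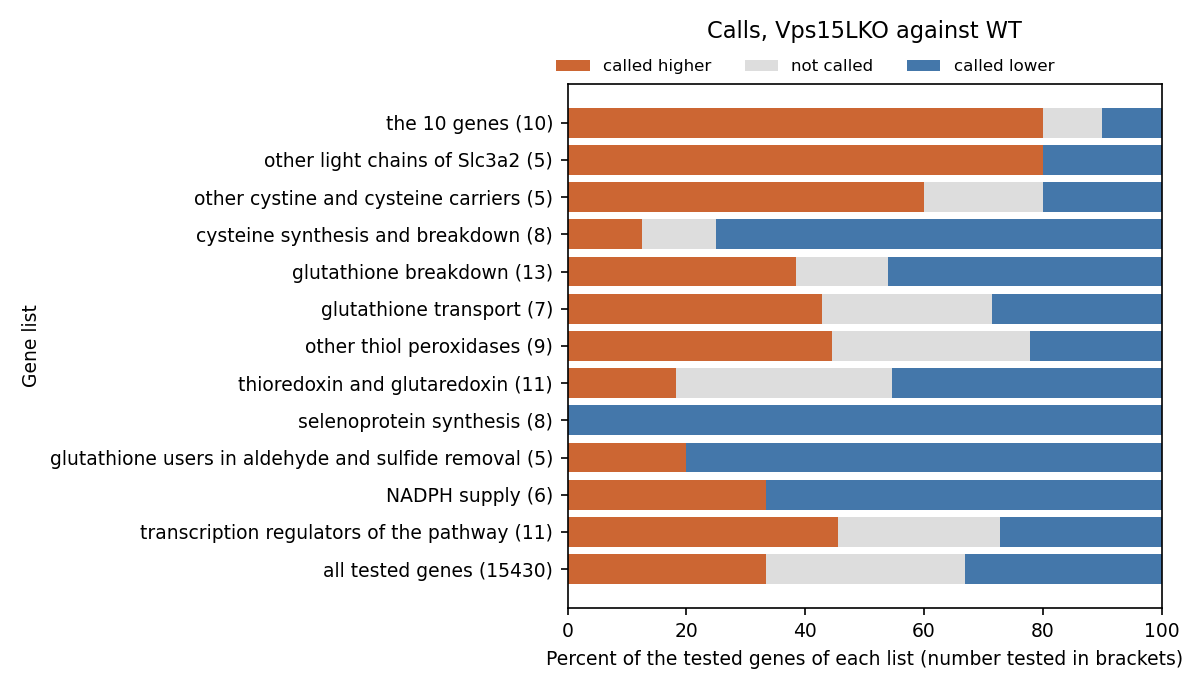
Percent of the tested genes of each list called higher (orange), not called (grey) or called lower (blue) in Vps15LKO livers, with the number tested in brackets. Among all tested genes 33.5% were called higher and 33.0% lower. The 10 genes were chosen with this contrast known, and all 8 genes of selenoprotein synthesis were called lower, against 3 called lower with equal totals of reads.

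Of 11 regulators known to act on these genes, 5 were called higher and 3 lower, near the 33.5% and 33.0% of all tested genes, while with equal totals of reads all 11 were called higher, as were 66.7% of all tested genes. Nfe2l2, which encodes Nrf2, the activator of antioxidant genes, had 1537, 1312 and 1469 normalized counts in WT and 2244, 2328 and 2112 in Vps15LKO livers (log2 fold change 0.63, adjusted p = 0.000428 from limma). Sqstm1, which encodes the autophagy receptor p62 that binds the Nrf2 inhibitor Keap1, rose from 10952, 10595 and 9025 to 19129.5, 18332 and 18299 (0.87, adjusted p = 0.000563 from limma). Keap1 had −0.29 (adjusted p = 0.0158 from limma), a call lost without WT replicate 2 (−0.24) and with TMM (−0.25), upper-quartile (−0.17) and quantile scaling (−0.05), and its sign turned with equal totals of reads (0.43). Among the small Maf partners, Maff rose by 2.12 (adjusted p = 0.00131) and Mafk by 0.71 (adjusted p = 0.00159) on the log2 scale in limma, while Mafg had −0.35 (adjusted p = 0.0236). The call of Mafg was lost without WT replicate 1 or 2 (−0.30 in both) and without Vps15LKO replicate 1 (−0.36) or 3 (−0.29), and with upper-quartile (−0.22) and quantile scaling (−0.06), and its sign turned with equal totals (0.38). Nfe2l1, a relative of Nrf2, had −0.30 (adjusted p = 0.0251 from limma), a call lost without WT replicate 1 (−0.29) or 2 (−0.25) or Vps15LKO replicate 1 (−0.30) or 3 (−0.25) and with TMM (−0.25) or upper-quartile scaling (−0.18). It was 0.43 under equal totals and 0.15 with quantile normalization. Bach1, a repressor of the same elements, had 891, 1062 and 647 in WT and 848, 749 and 616 in Vps15LKO livers and was not called, though it was called lower without WT replicate 3 (−0.41). Atf4, the activator of amino acid import genes in the stress response, had 2547, 1999.8 and 2234 in WT and 1868, 2027 and 1951 in Vps15LKO livers, which overlap. Of its known targets, Ddit3 rose from 145, 119.9 and 111 to 304, 284 and 282 (1.22, adjusted p = 6.60e-05 from limma), and Trib3 had 448, 398 and 339.7 against 477, 388 and 306. These are transcript levels, and the activity of Nrf2 and ATF4 proteins was not measured in these data.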

How the data were processed

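RNA-seq of whole liver from 3 WT and 3 Vps15LKO mice was analysed. Per the labels, the authors used HISAT2 for mapping on GRCm38, featureCounts (Subread) for gene counts and DESeq2 for normalization. Versions, strand and multi-mapping settings are not given in the sources used here. The deposited values are a signal, read counts of 56305 genes after division by a size factor of the library. All nonzero values (100%) lay within 0.1 of a whole multiple of 1 read, so whole reads were recovered (16137093 to 18110223 per library). GENCODE M21 gave names and lengths for 55227 genes.

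The 15430 genes that reached 20 normalized counts in 3 or more livers were compared on log2(normalized count + 1), a scale that understates changes of low genes, with limma 3.58.1 (trend, R 4.3.3) and Benjamini-Hochberg adjustment. A call needed both a fold of at least 1.2 and an adjusted p under 0.05. For a single gene, 3 against 3 livers cannot give an exact permutation p under 0.1. On simulated counts for this comparison, with 189 changed genes among 15113, limma recovered 88.9% of 2-fold and 98.1% of 4-fold changes with 13 false calls. That simulation changed few genes and used the true size factors, whereas 5163 genes were called higher and 5099 lower in the data. It therefore does not give the error rate of the data, where the scaling is in question. The members, the gene lists and the tests were chosen with earlier results of these data known. Named besides the 10 genes are, from each list, up to 3 called genes with the largest rise and up to 3 with the largest fall at a mean of at least 100 and no overlap, all regulators, all other light chains and all other glutathione peroxidases. Abcc2 and Dpep2 were named outside this rule after their values were seen. Where a symbol has 2 gene records that share reads (Nnt, Ddit3, Dpep2), the lower ID was used and the value is uncertain. Csad, G6pdx, Ggact, Ggt7, Glo1, Keap1, Mafg, Mafk, Me1, Prdx5, Selenop, Sephs2, Slc7a7, Slc7a10 and Sqstm1 also share exon sequence with another gene, mostly on the other strand, and reads from both may be mixed.

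Replicate numbers did not pair the livers (correlation of deviations of same-numbered livers −0.00992, −0.0114 and 0.0485), so no block was used. Replicates are separate mice, and the chi-square per gene between replicates was 14.0 to 36.4, so no library was a copy. Alternatives were pseudocounts of 0.1 and 10, other filters, TMM, upper-quartile, total-read and quantile scaling, DESeq2 1.42.0, edgeR 4.0.16 and voom (on recovered reads), limma with no trend, other fold thresholds, each liver left out and a replicate block. On the recovered reads edgeR called 5277 genes higher and 4980 lower. Per-kb levels use merged exons. Tables and plots were made with Python 3.11.15, pandas 2.3.3, scipy 1.17.1 and matplotlib 3.10.9.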

Additional observations from a re-analysis of the deposited data

How the results depend on the processing

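Across the 21 alternatives, 7 of the 10 genes kept their direction and call wherever they were tested, the exceptions being Gclm, Gpx1 and Gpx4. Of the values of the other named genes, 1140 kept both, 64 lost the call, 29 turned in sign and 1 gained a call. With 5163 genes called higher and 5099 lower (49.7% of calls lower), equal totals of reads gave 10299 and 1712 (14.3% lower), and a fold of at least 2 gave 3228 and 1957. Of the 88 tested genes in the pathway lists, 30 were called higher and 42 lower, where 33.5% and 33.0% of all tested genes were. Without those that passed the filter through the Vps15LKO livers alone, 26 of 84 were called higher. With equal totals the counts became 53 and 21 of 88, where 66.7% and 11.1% of all tested genes were called higher and lower. At a fold of at least 2, 22 were lower. With a minimum of 20 in all 6 livers, 5 of the 7 members still tested were called higher, since Slc7a11, Gpx2 and Ggt1 were not tested. With quantile normalization 0 members were called lower, Gpx1 turned to 0.048 and Gclm to 0.52, and Gclm was 0.56 with equal totals. Gpx4 lost its call at a fold of at least 2. With equal totals the log2 fold change turned to 0.23 for Slc25a39, 0.075 for Abcg2, 0.017 for Prdx4, 0.38 for Prdx5, 0.43 for Keap1, 0.43 for Nfe2l1, 0.51 for Bach1, 0.38 for Mafg, 0.52 for Atf4, 0.69 for Trib3 and 0.19 for Pik3r4. With quantile normalization it turned to 0.52 for Slc25a39, 0.22 for Prdx5, 0.15 for Nfe2l1 and 0.23 for Atf4. Trib3, at −0.03, also turned with TMM (0.013), upper-quartile scaling (0.091) and edgeR (0.00483), and ran from −0.19 to 0.13 with single livers left out. Abcc2, at −0.0024, turned to 0.043 with TMM, 0.12 with upper-quartile scaling, 0.72 with equal totals, 1.05 with quantile normalization, 0.023 with edgeR and 0.000329 with voom, and ran from −0.094 to 0.091 with single livers left out. Leaving out each liver gave 4648 to 5152 genes higher and 4450 to 5070 lower. The fit with a replicate block gave 5065 higher and 4983 lower genes and 8 higher members and 1 lower. The cause of these differences was not tested. Depth limits Slc7a11, Ggt1 and Slc1a1 in WT livers, where 0 or 1 read leaves their fold open upward.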

Other observations

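The thioredoxin system, which keeps other protein thiols reduced beside glutathione, had genes called in both directions. Of 11 thioredoxin and glutaredoxin genes, 2 were called higher and 5 lower, where 33.5% and 33.0% of all tested genes were, and with equal totals of reads 6 were called higher and 0 lower, where 66.7% and 11.1% were. Srxn1, the sulfiredoxin that repairs overoxidized peroxiredoxins, rose from 926, 914 and 830.4 to 20209, 18621 and 17966 normalized counts (log2 fold change 4.41, adjusted p = 8.39e-08 from limma), so every Vps15LKO liver held many times the level of any WT liver. Txnrd1, the cytosolic thioredoxin reductase and a selenoprotein, rose from 2449, 2562 and 2059.8 to 5129, 5356 and 4298 (1.06, adjusted p = 0.000114 from limma). Mitochondrial thioredoxin Txn2 had −0.82 (adjusted p = 8.27e-05), the testis-type reductase Txnrd3 −0.98 (adjusted p = 0.00133) and the mitochondrial glutaredoxin Glrx2 −0.78 (adjusted p = 0.000469) in limma, and none of these 3 was called with equal totals of reads. Among 9 tested thiol peroxidases other than the members, 4 were called higher, Gpx8 included, which passed the filter through the Vps15LKO livers alone, and 2 lower (8 and 0 with equal totals). Without Gpx8, 3 of 8 were called higher and 2 lower. The shares of all tested genes were 33.5% and 33.0%, and 66.7% and 11.1% with equal totals. Prdx3, the mitochondrial peroxiredoxin, rose by 0.53 on the log2 scale (adjusted p = 0.000595 from limma). Prdx4 had −0.71 (adjusted p = 0.000264 from limma) and Prdx5 −0.35 (adjusted p = 0.0169 from limma, with the call lost without WT replicate 1, at −0.26, and without Vps15LKO replicate 1, at −0.34, and with upper-quartile scaling, at −0.22), and both turned above 0 with equal totals.

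Of 5 genes for enzymes that use glutathione to clear reactive aldehydes and sulfide, 4 were called lower and 1 higher, with the same counts under equal totals of reads, where 33.0% and 33.5% of all tested genes were called lower and higher, and 11.1% and 66.7% with equal totals. Glo1, the glyoxalase that takes the methylglyoxal adduct of glutathione, fell from 7239.7, 6611 and 5999 to 1508, 2055 and 1357 normalized counts (−2.03, adjusted p = 1.25e-05 from limma). Hagh, which completes that reaction and frees glutathione, fell from 4632, 3657 and 3036 to 884, 1108 and 736 (−2.05, adjusted p = 2.66e-05 from limma). Adh5, the dehydrogenase of the formaldehyde adduct of glutathione, fell by 1.47 on the log2 scale (adjusted p = 4.02e-05 from limma). Esd, the hydrolase of the step after Adh5, rose from 4088, 3358 and 3052 to 5372, 5507 and 5413 (0.64, adjusted p = 0.00167 from limma), so the enzymes of formaldehyde removal did not move as a pair.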
